A study of Rattus norvegicus with 8 samples.

Results

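The miRNAs described here come from the imprinted Dlk1-Dio3 locus, a stretch of rat chromosome 6 that carries one of the longest arrays of miRNA hairpins in a mammalian genome. Members were chosen by name, as every row of the counts table that carries 1 of 39 hairpin numbers of the locus, with any arm suffix. Of these numbers 38 had a row, miR-540 had none, and 68 of the 620 miRNAs in the table were members. The reads came from small RNA libraries of the kidneys of 8 male Big Blue rats, which are Fisher 344 rats that carry a transgene for mutation assays, and which were 6 weeks old when treatment began. The AA group (AA1 to AA4) was given aristolochic acid, a kidney carcinogen from Aristolochia plants, as its sodium salt by gavage at 10 mg/kg and 4 ml/kg, with 5 doses in each of 12 weeks. The control group (CTL1 to CTL4) was given saline on that schedule, and all 8 rats carried the transgene. Each library came from 1 rat, and the piece of unsorted kidney tissue used holds tubule, vessel, stromal and blood cells together.

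Genes of the Dlk1-Dio3 locus are expressed from one parental copy only. Dlk1, Rtl1 and Dio3 encode proteins and are read from the paternal chromosome, while Meg3, the transcript antisense to Rtl1 and the long host transcripts of the miRNAs are read from the maternal one. Each hairpin is cut out of its host transcript and processed to a duplex whose arms can both be loaded into a silencing complex, where the seed near the 5′ end pairs with target mRNAs. The miRNAs of the locus are known for high levels in brain, embryo and placenta and for low levels in most adult organs. In the order along the chromosome, Dlk1 and Meg3 come first, the hairpins from miR-493 to miR-136 follow before and within Rtl1, the array from miR-379 to miR-410 lies beyond them, and Dio3 closes the locus.

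Sequences were taken from RefSeq (assembly GRCr8), where all 39 hairpin symbols had a mature sequence, with 72 mature names and 68 distinct seeds among them. The counts table names most arms in an older style, as a plain name and a starred name, which does not state the 5p or 3p side, and 10 members had the same name as a RefSeq sequence. Both arms are therefore printed for the 3 hairpins with an arm that passed the test between the groups (miR-382, miR-411, miR-410) and for miR-379, the most read member. Bases 2 to 8, the seed, are in capitals.
rno-miR-382-5p: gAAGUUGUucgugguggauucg
rno-miR-382-3p: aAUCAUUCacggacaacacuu
rno-miR-411-5p: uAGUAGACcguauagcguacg
rno-miR-411-3p: uAUGUAACacgguccacuaa
rno-miR-410-5p: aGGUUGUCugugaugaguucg
rno-miR-410-3p: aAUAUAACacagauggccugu
rno-miR-379-5p: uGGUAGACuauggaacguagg
rno-miR-379-3p: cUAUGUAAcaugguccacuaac

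The miR-382 hairpin is also shown whole, because its arm shares did not overlap between the groups. The test of that difference did not pass after adjustment, which no hairpin could have passed alone. The hairpin is 80 nt long and lies at chr6:134569944-134570023 on the plus strand of GRCr8, a build that was not matched to the build of the counts. Capitals mark the 5p arm and then the 3p arm.
Mir382 hairpin: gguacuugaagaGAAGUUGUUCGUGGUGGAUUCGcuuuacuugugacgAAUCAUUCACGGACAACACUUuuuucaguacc

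Only 3 seeds were held by more than 1 mature sequence of the locus. The seed GGUUGUC was shared by the 5p arms of miR-494, miR-496 and miR-410, as seen in rno-miR-410-5p above and in the pair below. The seed AUACAAG was shared by the 3p arms of miR-381 and miR-539, and UGGAUAU by the 5p arms of miR-376c and miR-376b. These last 5p arms had the same first 18 bases, so that a short read of one can be counted on the other and the level of rno-miR-376b-5p is uncertain.
rno-miR-494-5p: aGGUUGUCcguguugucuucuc
rno-miR-496-5p: aGGUUGUCcaugguguguuc
rno-miR-376c-5p: gUGGAUAUuccuucuauguuu
rno-miR-376b-5p: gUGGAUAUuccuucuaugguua

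The libraries held 13412373 to 15616670 reads on known miRNAs. The tissue field of the labels reads liver, whereas the design text and the paper give kidney. The kidney tubule miRNAs miR-192, miR-194 and miR-204 together took 1.89% to 6.92% of the reads of a library, mostly through miR-192. The liver miRNA miR-122 took 6.71e-05% to 0.0634%, the most in AA2. The tissue was not tested by these shares. The libraries numbered 4 stood apart in several values of the locus. For members shown with their values in each library, log2 fold changes that moved by more than 1.5 times without both are given both ways. Levels are given as reads, as percent of reads, or as CPM, reads scaled by the library size after TMM normalization, as edgeR computes it. A miRNA was tested with edgeR's quasi-likelihood method where 4 or more of the 8 libraries held 10 reads or more, which 367 of the 620 did, and it was called where the Benjamini-Hochberg adjusted p was under 0.05.

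The locus was read at a low level in these kidneys. The 68 members held 23601 reads in all, and 29 of them (42.6%) were tested, against 59.2% of all miRNAs. Fewer than 10 reads in each of the libraries were found for 32 members, and 16 members had 10 reads or more in all 8. At least 1 read in each of the 8 libraries was found for 55.9% of the members and for 69.8% of all miRNAs. The reads were held by few members. miR-379, the first hairpin of the large array, took 35.5% of the members' reads, and with miR-411, miR-134, miR-541 and miR-381 the share was 74.7%. By mean CPM, miR-379 ranked 129 among the 620 miRNAs.

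The array from miR-379 to miR-410 held 97.3% of the members' reads, or 22969 reads over 54 members. The 12 members from the hairpins miR-493 to miR-136 held 623 reads, or 2.64%, and of these only miR-127 was tested. In the RefSeq order, miR-431, miR-433, miR-127, miR-434 and miR-136 come after the start of Rtl1, and miR-493, miR-337 and miR-665 come before it. miR-370 and miR-770, which lie outside both groups, had 9 reads between them. Reads from the opposite strand were also few. rno-miR-3592, which in RefSeq is the reverse complement of rno-miR-382-3p, had 3 reads in AA1 and 0 in every other library.

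The members' share of the reads was 0.0214%, 0.0222%, 0.0218% and 0.0264% in CTL1 to CTL4, and 0.0202%, 0.0215%, 0.0168% and 0.0113% in AA1 to AA4. The means were 0.0230% ± 0.00233 for CTL and 0.0174% ± 0.00455 for AA (SD, n = 4 each), with overlap through AA2. The lowest share was that of AA4 (95% Wilson interval 0.0108% to 0.0118%) and the highest that of CTL4 (0.0256% to 0.0273%). Such intervals take in counting error alone, because PCR copies of a molecule are not independent. Without both libraries numbered 4, AA minus CTL was -0.00233 percentage points, against -0.00554 with all 8 libraries.

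On the CPM scale the members summed to 245, 240, 209.7 and 296 in CTL1 to CTL4. In AA1 to AA4 the sums were 209.3, 177, 160 and 104. The groups did not overlap on this scale, although CTL3 and AA1 were almost level, and the means were 248 ± 35.7 and 163 ± 43.9 (SD, n = 4 each). Less miR-379, the means were 165 ± 15.0 and 99.03 ± 32.2 CPM (SD, n = 4 each). No test was run on these sums, and in whole tissue fewer cells of a type and less RNA per cell cannot be told apart.

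**Figure D1:**
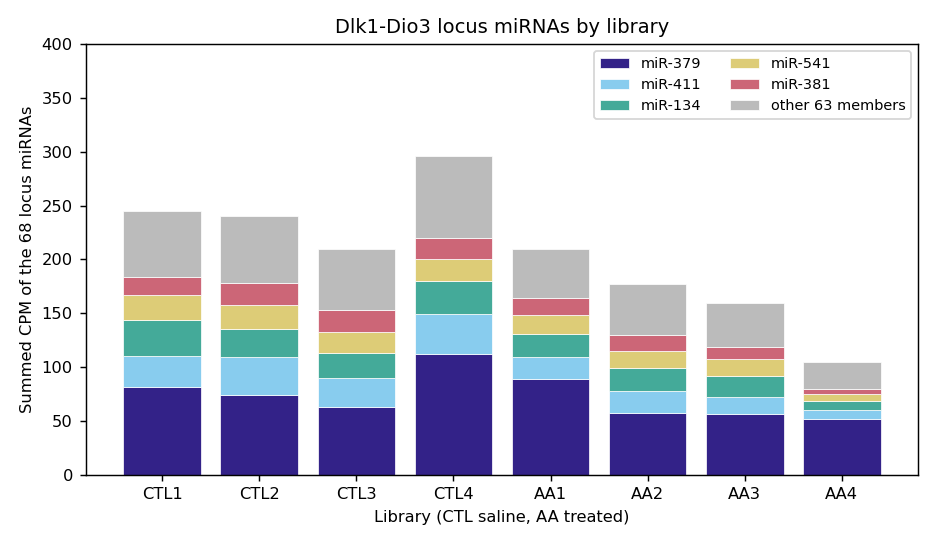
Summed CPM (y axis) of the 68 locus miRNAs in each of the 8 libraries (x axis), stacked by the 5 most read members and the rest. The control libraries sit at 209.7 to 296 and the AA libraries at 104 to 209.3, and miR-379 is the largest layer in each bar.

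The AA libraries also lay lower in the median over the tested members, though not for every member. Each tested member was set against its mean log2 level in the 4 control libraries, with 0.5 CPM added, and the median over the 29 was taken for each library. This median was 0.01, 0.00, -0.09 and 0.20 in CTL1 to CTL4 and -0.39, -0.24, -0.51 and -1.08 in AA1 to AA4. Over all 367 tested miRNAs the same median stayed between -0.04 and 0.08 in every library. AA4 was the lowest of the 8 libraries for 20 of the 29 members, and for 23.2% of all tested miRNAs.

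**Figure D2:**
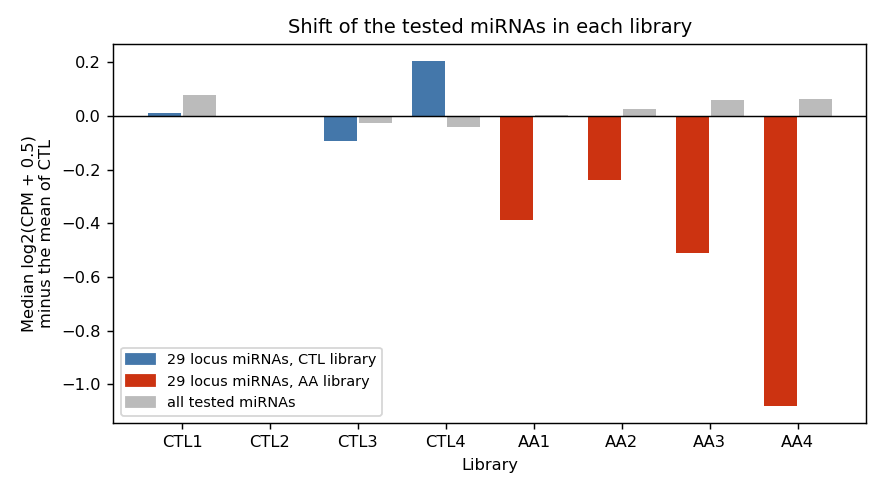
Median log2 deviation from the control mean (y axis) in each library (x axis), for the 29 tested locus miRNAs (coloured bars) and for all 367 tested miRNAs (grey bars). The locus bars of the 4 AA libraries lie at -0.24 to -1.08, while the grey bars stay between -0.04 and 0.08.

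Between the groups, 3 of the 29 tested members were called, miR-382*, miR-411 and miR-410, and all 3 were lower in AA. This is 10.3% of the tested members. Over all 367 miRNAs, 16.3% were called in either direction and 5.99% were called lower (edgeR, adjusted p under 0.05), and the share of the members rests on these 3 miRNAs. No member was called higher, while 38 of all 367 tested miRNAs were. In CPM, all 4 AA libraries lay below all 4 control libraries for 9 members (31.0%), against 9.81% of all tested miRNAs. This order depends on the scaling, and the TMM factor was largest in AA2 (1.21). In reads without scaling, miR-382* and miR-411 kept the order and the others of the 9 did not. For example, miR-134 had 390 reads in AA2 and 349 in CTL2.

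Most members that were not called lay on the same side of 0. The log2 fold change of AA over CTL was below 0 for 28 of the 29 tested members and for 45.2% of all tested miRNAs, with medians of -0.68 and 0.06. These members are not independent. Of the 29, 28 lie in the array from miR-379 to miR-410, and several hairpins are counted by both arms. The names rno-miR-485* and rno-mir-485* are both counted, and what the spellings stand for is not given. The same holds for rno-miR-299* and rno-mir-299* among the 68. The limit on reads can favour one direction, since 13 of the 29 had fewer than 4 AA libraries with 10 reads and 5 had fewer than 4 such control libraries. In the fit without that limit, 54 of all 68 members (79.4%) and 45.3% of all 620 miRNAs were below 0, with medians of -0.58 and 0.09. Many of those values rest on single reads. Among miRNAs with more than 3 reads in a group, 47 of 51 members (92.2%) were below 0, against 44.8% of 522 miRNAs, and the medians were -0.71 and 0.08. In that last count a group without reads was set at 3 reads.

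Leaving out AA4 made this shift smaller, while total counts moved the medians of the members and of all tested miRNAs up together. The direction of most members held in each case. Without AA4, 26 of 29 members were below 0 with a median of -0.58, against 55.3% and -0.06 over all tested miRNAs. Without both libraries numbered 4, 25 of 29 were below 0 with a median of -0.40, against 0.06 over all. With total counts in place of TMM scaling, 26 of 29 were below 0 with a median of -0.46, while the median over all tested miRNAs moved to 0.27 and 35.1% of them were below 0.

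The member with the strongest difference was miR-382*, from a hairpin that has been studied in kidney tubule cells and fibrosis. It had 53, 60, 61 and 38 reads in CTL1 to CTL4 and 21, 29, 20 and 10 in AA1 to AA4. Every AA library lay below every control library. The mean fell to 1.29 ± 0.478 CPM from 3.82 ± 0.549 (SD, n = 4 each), and the log2 fold change was -1.56 (SE 0.33, edgeR adjusted p = 0.0089), where SE is the standard error from the fit. The AA mean was 33.8% of the control mean. miR-382* was called in all 15 alternative fits, with 1 library left out giving log2 fold changes of -1.80 to -1.40.

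miR-411 lies next to miR-379 and was the second most read member. Its reads were 389, 482, 445 and 456 in CTL1 to CTL4 and 263, 380, 235 and 134 in AA1 to AA4. Only AA4 was far below the rest, yet no AA library reached the control range in CPM. The mean fell to 16.3 ± 5.91 CPM from 32.3 ± 4.67 (SD, n = 4 each), and the log2 fold change was -0.99 (SE 0.29, edgeR adjusted p = 0.043). Without AA4 the log2 fold change was -0.86 (edgeR adjusted p = 0.030). The call held in 7 of 15 alternative fits. It was lost with total counts (log2 fold change -0.78, edgeR adjusted p = 0.090) and without a limit on reads (edgeR adjusted p = 0.052). It was also lost when any 1 of the control libraries, AA1 or AA3 was left out, with log2 fold changes of -1.22 to -0.92. Without both libraries numbered 4 the call held, at -0.69.

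miR-410, the last hairpin of the array, had 46, 55, 46 and 38 reads in CTL1 to CTL4 and 14, 44, 25 and 12 in AA1 to AA4. AA2 was the highest AA library and still lay below CTL3, the lowest control library, in CPM. The mean fell to 1.48 ± 0.737 CPM from 3.36 ± 0.519 (SD, n = 4 each), and the log2 fold change was -1.18 (SE 0.36). The adjusted p of 0.0499 (edgeR) is just under the threshold. The call held in 5 of 15 alternative fits and was lost with total counts (edgeR adjusted p = 0.111), without a limit on reads (edgeR adjusted p = 0.079) and without both libraries numbered 4 (log2 fold change -0.97, edgeR adjusted p = 0.083). Of the fits with 1 library left out, the one without AA2 kept it, and the lowest size was without AA4 (log2 fold change -1.02, edgeR adjusted p = 0.066).

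**Figure D3:**
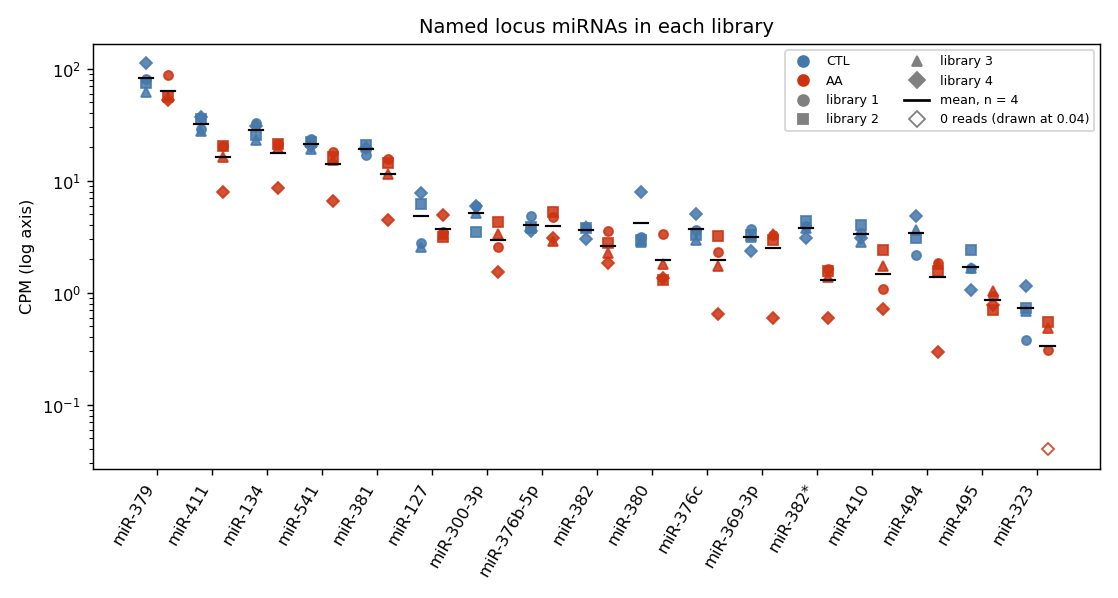
CPM on a log axis (y axis) of the 17 named locus miRNAs (x axis, by falling mean CPM), with a point for each library, the marker shape for the library number and a line for each group mean (n = 4). The open diamond stands for the 0 reads of miR-323 in AA4. For miR-382*, miR-411 and miR-410 all AA points lie below all CTL points, while for miR-376b-5p and miR-379 the groups overlap.

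miR-379, the most read member, was not called. Its CPM were 81.4, 74.3, 62.6 and 112 in CTL1 to CTL4 and 88.8, 57.1, 56.2 and 52.2 in AA1 to AA4. AA1 lay inside the control range and the other AA libraries below it. The means were 82.5 ± 21.1 and 63.6 ± 16.9 CPM (SD, n = 4 each), and AA over CTL was -0.38 in log2 (SE 0.25, edgeR adjusted p = 0.328). Single libraries moved this value, to -0.71 without AA1 (edgeR adjusted p = 0.109) and -0.19 without CTL4, and it was -0.11 without both libraries numbered 4.

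Among the other abundant members, miR-134, miR-381 and miR-541 had a CPM in each AA library that was below all control libraries, but none passed the adjusted test. The order did not hold in reads without scaling. There AA2 had 390 reads of miR-134 (CTL2 349), 265 of miR-381 (CTL1 226) and 300 of miR-541 (CTL4 251). miR-134, known for its role at neuronal dendrites, had 32.9, 25.7, 23.3 and 31.0 CPM in CTL1 to CTL4 and 21.3, 21.2, 19.5 and 8.53 in AA1 to AA4 (log2 fold change -0.68, edgeR adjusted p = 0.143). miR-381 had 16.9, 20.8, 20.1 and 19.8 CPM in the control libraries and 15.8, 14.4, 11.5 and 4.50 in the AA libraries (log2 fold change -0.75, edgeR adjusted p = 0.162). For both, AA4 was far below the other AA libraries, and without it the log2 fold changes were -0.54 and -0.58. miR-541 had 23.7, 22.2, 19.2 and 20.4 CPM in the control libraries and 18.0, 16.3, 15.2 and 6.58 in the AA libraries (log2 fold change -0.61, edgeR adjusted p = 0.188). Without both libraries numbered 4, the log2 fold changes of miR-134, miR-381 and miR-541 were -0.40, -0.47 and -0.39.

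The uncalled members with the largest fold changes were miR-494, miR-380, miR-323 and miR-495. miR-494, which has been studied in kidney ischaemia, had 29, 42, 58 and 60 reads in CTL1 to CTL4 and 24, 29, 26 and 5 in AA1 to AA4. Its groups did not overlap in CPM, and the log2 fold change was -1.32 (SE 0.47, edgeR adjusted p = 0.090) or -1.09 without AA4 and -0.77 without both libraries numbered 4. miR-495 had 22, 33, 27 and 13 reads in the control libraries and 12, 13, 15 and 13 in the AA libraries, with a log2 fold change of -0.99 (SE 0.31). Its adjusted p of 0.056 (edgeR) was just over the threshold, and it was called in 5 of 15 alternative fits. The order of the groups in miR-494 and miR-495 held in CPM only. For miR-494, CTL1 and AA2 both had 29 reads, and for miR-495, CTL4 had 13 reads against 15 in AA3.

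For miR-380, CTL4 was far above the other libraries. Its reads were 42, 40, 46 and 98 in CTL1 to CTL4 and 43, 24, 26 and 23 in AA1 to AA4, with a log2 fold change of -1.13 (SE 0.44, edgeR adjusted p = 0.113). When single libraries were left out it ranged from -1.65 (without AA1) to -0.63 (without CTL4), and it was -0.50 without both libraries numbered 4. miR-323 had 5, 10, 11 and 14 reads in the control libraries and 4, 10, 7 and 0 in the AA libraries (log2 fold change -1.11, edgeR adjusted p = 0.269). The 0 in AA4 allows a share of up to 1.92e-05% of its reads, the share of 3 reads. Without both libraries numbered 4 the log2 fold change of miR-323 was -0.40.

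The remaining named members overlapped between the groups. miR-376c (48, 45, 48 and 62 reads in CTL1 to CTL4, 30, 59, 25 and 11 in AA1 to AA4) had a log2 fold change of -0.91 (edgeR adjusted p = 0.172), or -1.40 without AA2 and -0.44 without both libraries numbered 4. miR-300-3p (80, 47, 83 and 73, then 33, 79, 49 and 26 reads) had one of -0.80 (edgeR adjusted p = 0.134), or -0.51 without both libraries numbered 4. miR-369-3p (49, 45, 51 and 29, then 42, 54, 49 and 10 reads) had one of -0.31 (edgeR adjusted p = 0.659). This became -0.06 without AA4 and -0.09 without both libraries numbered 4, and -0.53 to -0.48 when any 1 of the other AA libraries was left out.

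miR-376b-5p differed least among the named members. It had 65, 52, 61 and 44 reads in CTL1 to CTL4 and 61, 96, 42 and 52 in AA1 to AA4. The means were 4.02 ± 0.581 and 3.97 ± 1.16 CPM (SD, n = 4 each), and AA over CTL was -0.02 in log2 (SE 0.27, edgeR adjusted p = 0.974). With total counts the value was 0.21, so that its sign is not set by these data. miR-369-5p was the only tested member above 0, at 0.15 (SE 0.45, edgeR adjusted p = 0.833). It was at 0.37 without AA4 and ran from -0.24 to 0.45 with 1 library left out.

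Of the 28 tested members of the array from miR-379 to miR-410, 27 were below 0, with miR-369-5p as the exception. In the fit without a limit on reads, the array's 54 members had a median log2 fold change of -0.78, beside 0.09 over all miRNAs, and 43 of the 44 with more than 3 reads in a group were below 0. The 12 members from miR-493 to miR-136 had a median of 0.50 in the same fit, from very few reads. Of these, 6 had more than 3 reads in a group, 3 of them below 0, with a median of 0.08. The difference between the groups of hairpins was not tested.

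miR-127, which can direct cleavage of the Rtl1 mRNA, was the only member of that group with enough reads. It had 37, 84, 41 and 96 reads in CTL1 to CTL4 and 45, 58, 49 and 83 in AA1 to AA4. CTL2, CTL4 and AA4 were high and the others close together. The means were 4.83 ± 2.60 and 3.73 ± 0.804 CPM (SD, n = 4 each), and AA over CTL was -0.37 in log2 (SE 0.38, edgeR adjusted p = 0.525). With 1 library left out the value ran from -0.65 (without AA4) to -0.04 (without CTL4), and it was -0.20 without both. Its neighbours miR-434 and miR-136 had 2 to 10 and 1 to 6 reads in a library. miR-493, miR-337, miR-665, miR-431 and miR-433 of the same group had fewer than 10 reads in every library, as had miR-370 and miR-770.

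**Figure D4:**
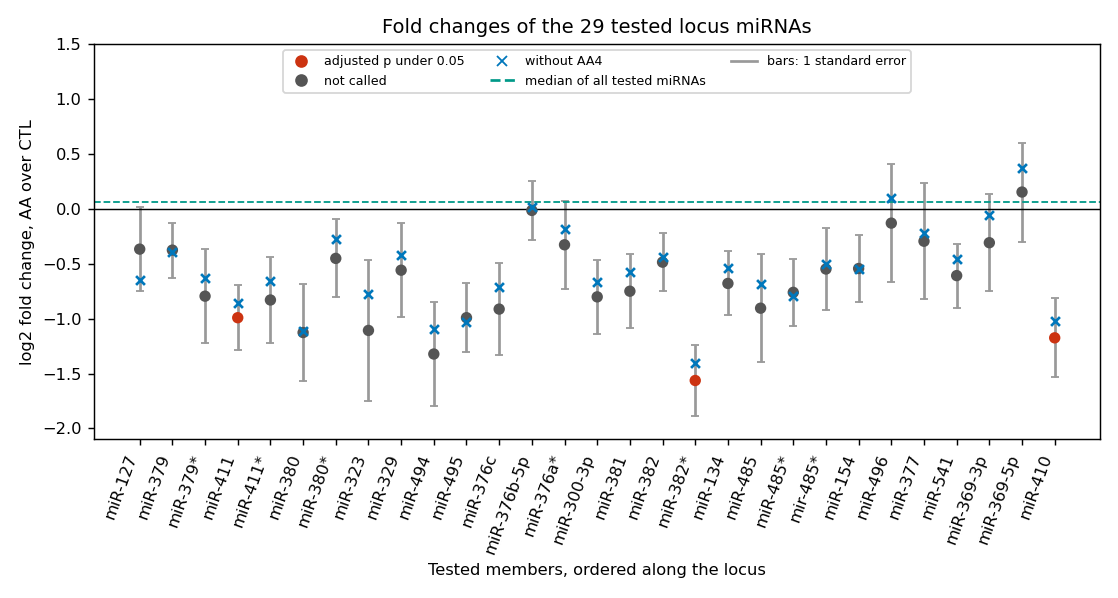
Log2 fold change of AA over CTL (y axis, bars are the standard error) for the 29 tested members in locus order (x axis), with crosses for the fit without AA4 and a dashed line at the median of all tested miRNAs, 0.06. The points of 28 members lie below 0, and the called ones (red) are miR-411, miR-382* and miR-410.

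Outside the tested members, 7 reached 10 reads in 1 to 3 libraries. They were miR-434, miR-376b-3p, miR-376a, miR-487b, miR-539*, miR-154* and miR-409-5p. miR-409-5p, for example, had 7, 11, 10 and 17 reads in CTL1 to CTL4 and 8, 9, 5 and 9 in AA1 to AA4. Another 22 members had at most 8 reads over all 8 libraries together, among them both arms of miR-758. At this depth no difference could be detected for them.

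Because both arms of a hairpin come from 1 precursor, the share of its reads on 1 arm does not depend on the scaling between libraries. Of 205 hairpins listed with both arms, 155 had 20 reads or more over both arms in every library. The share of the star or 3p arm was compared between the groups by the exact permutation test (two-sided, smallest p possible 0.0286), and 14 hairpins (9.03%) had an unadjusted p under 0.05. None had one after Benjamini-Hochberg adjustment, where the smallest value was 0.316. With that smallest p possible, an adjusted p under 0.05 would need most of the 155 hairpins to reach it. The adjusted test therefore cannot decide on a single hairpin. Of the 10 locus hairpins among the 155, 1 had an unadjusted p under 0.05, which is 10% and near the overall share.

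That hairpin was miR-382. The star arm took 50.5%, 54.1%, 49.2% and 50.7% of its reads in CTL1 to CTL4 and 31.3%, 36.3%, 37.7% and 24.4% in AA1 to AA4. In each control library the arms were about level, and in each AA library the plain arm had more reads. The means were 51.1% ± 2.08 and 32.4% ± 6.02 (SD, n = 4 each), a difference of -18.7 percentage points (exact permutation test, p = 0.0286, adjusted over all 155 hairpins p = 0.316). The plain arm, miR-382, had 52, 51, 63 and 37 reads in the control libraries and 46, 51, 33 and 31 in the AA libraries, and it was not called (log2 fold change -0.49, edgeR adjusted p = 0.241, or -0.77 without AA1).

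In the other 9 hairpins the groups overlapped in arm share. miR-379*, for example, took 1.64% ± 0.445 and 1.24% ± 0.892 of its hairpin, and miR-411* took 3.82% ± 0.411 and 4.12% ± 0.960 (SD, n = 4 each, CTL and AA). In miR-380 the star arm was at 25.9% ± 9.62 in CTL and 33.2% ± 11.8 in AA (SD, n = 4 each, exact permutation test p = 0.4). The 3p arm of miR-376b was at 18.4% ± 10.9 and 9.35% ± 8.57 (SD, n = 4 each, exact permutation test p = 0.2). Among the control libraries the 3p arm of miR-376b ran from 8.45% to 31.3%, and the star arm of miR-380 from 12.5% to 34.4%.

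**Figure D5:**
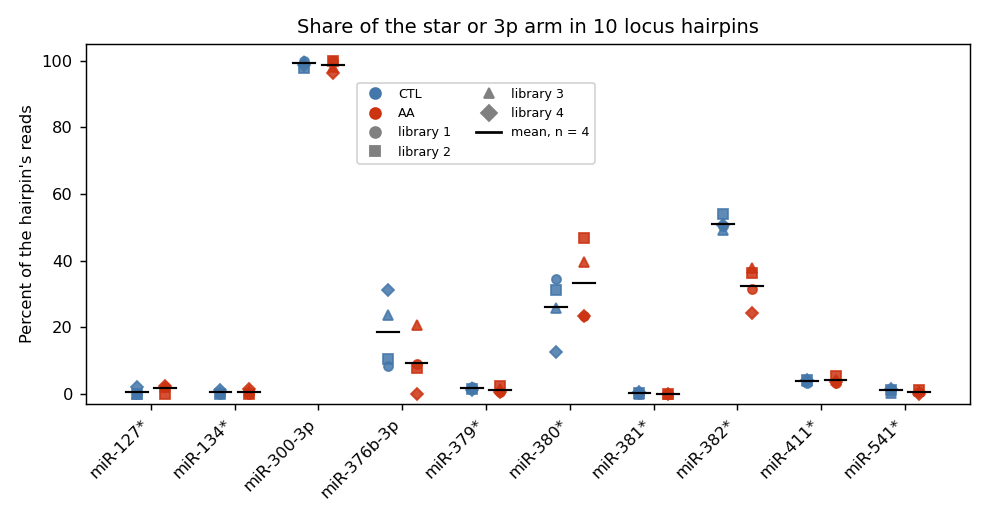
Percent of a hairpin's reads on the star or 3p arm (y axis) in each library, for the 10 locus hairpins with enough reads on both arms together (x axis), with CTL and AA points side by side. In miR-382 the CTL libraries sit at 49.2% to 54.1% and the AA libraries at 24.4% to 37.7%, and in the other hairpins the groups overlap.

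Markers of other cell types moved between the same libraries. The leukocyte miRNAs (miR-142-3p, miR-142-5p, miR-223 and miR-150) summed to 914 to 1264 CPM in the control libraries and 2057 to 4121 in the AA libraries. The sum was highest in AA4. Of the 4, 2 were called higher, miR-223 and miR-142-3p, and miR-142-3p held most of the sum. miR-142-5p, from the same hairpin, was not called (log2 fold change 0.30, edgeR adjusted p = 0.559). It had 494 reads in AA4, against 513 to 1046 in the control libraries and 841 to 1926 in the other AA libraries. Of the 3 kidney tubule miRNAs, 2 were called lower, miR-194 and miR-204. The sums were 23386 to 77420 CPM in the control group, the most in CTL4, and 15591 to 29112 in the AA group. They were mostly miR-192, which was not called (log2 fold change -0.79, edgeR adjusted p = 0.199). Of the 5 stromal miRNAs, 1 was called higher, miR-199a-3p (log2 fold change 0.65). The sums of this list were 177519 to 237849 CPM for CTL and 143529 to 184366 for AA, but nearly all of it was miR-143, the only one of the 5 below 0 (log2 fold change -0.36). The other 3, miR-199a-5p, miR-214 and miR-145, were at 0.80, 0.50 and 0.27, not called. Of 2 red blood cell miRNAs 0 were called, with sums of 499 to 798 CPM for CTL and 158 to 564 for AA, the least in AA4. The neuron list (298 to 399 and 328 to 605 CPM) and the skeletal muscle list (32.8 to 55.6 and 30.7 to 42.8 CPM) had no called miRNA among 3 tested in each. miR-124, on the neuron list, had too few reads to be tested, with 1, 1, 0 and 3 in CTL1 to CTL4 and 7, 32, 7 and 17 in AA1 to AA4. The part of these cell types in the levels of the locus was not tested.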

How the data were processed

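Small RNA of 22 to 30 nt from the kidneys of 4 AA and 4 CTL rats was read on the Illumina Genome Analyzer II. The deposited values are raw counts of reads per known rat miRNA, made by the authors with miRanalyzer and Bowtie (version not given in the sources used here) and miRBase, with no normalization. Reads shared by near-identical miRNAs, and arms named in the older style, follow that mapping and could shift the level of single members. Each column carries 1 sample title, from which group and number were taken.

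The whole table was fitted with edgeR 4.0.16 in R 4.3.3 (TMM scaling, glmQLFit and glmQLFTest, at least 10 reads in 4 of 8 libraries, Benjamini-Hochberg adjustment over the 367 miRNAs tested, threshold 0.05). The standard error is the log2 fold change divided by the square root of F. CPM uses the TMM library sizes. Arm shares were compared with the exact permutation test in scipy 1.17.1. On simulated counts for 367 miRNAs in this comparison, 96.5% of 200 changes of 2 on the log2 scale were recovered, with 5 false calls. The largest log2 fold change of a tested member was -1.56, and recovery at the members' sizes was not simulated. With 13412373 to 15616670 reads per library, members at about 10 reads are limited by counting error.

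Members given with values were those called, the 12 with the highest mean CPM, the 4 uncalled ones with the largest fold change and the hairpins of the arm test. miR-409-5p, miR-369-5p, miR-434, miR-136 and rno-miR-3592 were added after their values were seen. The members, the lists and this rule were chosen with earlier results of these data known. The alternatives were DESeq2 size factors, total counts, the DESeq2 1.42.0 Wald test, other limits on reads, the library number as a block, each library left out, and, added after seeing the data, both libraries numbered 4 left out. Libraries were compared pairwise and the closest pair differed by a chi-square of 453 per degree of freedom, so that none was merged.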

Additional observations from a re-analysis of the deposited data

Results flagged for a closer look

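Of 56 groups of 4 libraries examined among the named members, their arm shares and their summed share, 7 held a value far from the other 3, and about 2.8 would do so by chance. miR-379 was at 88.8 CPM in AA1, against 52.2 to 57.1 in the other AA libraries. miR-134 was at 8.53 CPM in AA4, against 19.5 to 21.3. miR-369-3p was at 0.592 CPM in AA4, against 2.93 to 3.37. In the control group, miR-380 was at 7.98 CPM in CTL4, against 2.85 to 3.15, and the summed share of the locus was 0.0264% in CTL4, against 0.0214% to 0.0222%. The star arm of miR-127 took 2.04% of its hairpin in CTL4 and 0% in the other control libraries, from 2 reads. It took 0% in AA2, against 2% to 2.35% in the other AA libraries, from 1 or 2 reads each.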

How the results depend on the processing

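The count of called members was 3. It was 1 with total counts, 6 with the DESeq2 Wald test (also miR-380, miR-494 and miR-495), which gave no adjusted p for 4 miRNAs, and 1 without a limit on reads. With 1 library left out it ranged from 1 to 4, being 1 without CTL1, CTL2, CTL3 or AA3, and without both libraries numbered 4 it was 3. Over all miRNAs, 60 were called, 38 higher and 22 lower, and 36 to 54 with 1 library left out (36 without CTL2, 38 without CTL1). With total counts, 54 were higher and 14 lower.

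miR-382* was called in every fit run, while miR-411 and miR-410 lost the call in most fits with 1 library left out, and the cause was not tested. The log2 fold change of miR-376b-5p changed sign, to 0.21 with total counts, 0.025 with 10 reads in all 8 libraries and 0.042 without both libraries numbered 4, and ranged from -0.30 to 0.11 with 1 library left out. The difference in the members' share of reads was -0.00554 percentage points, and -0.0206 after removing the 3 most abundant miRNAs from the total, which makes the total smaller.

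With the number in the sample titles as a replicate block, 3 members were called, and 78 of all miRNAs, 47 higher and 31 lower. Deviations of same-numbered libraries correlated at 0.05, 0.22, 0.18 and 0.41 across 367 miRNAs, which are not independent. The first is not over 0.1, so that the numbers were not taken as pairs, although 6 of the 8 libraries correlated best with their own number. A shared factor was not tested. For arm shares the block cannot give a p under 0.125, and 0 hairpins passed it.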
